A study of Mus musculus with 6 samples.

Results

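STAT proteins are latent transcription factors that carry cytokine signals to the nucleus, and SOCS proteins (CISH among them) are the feedback inhibitors that their target genes encode. The rows of 9 such genes, taken by symbol from a deposited table of 22905 genes, are described here: the 5 STAT genes Stat2, Stat3, Stat4, Stat5a and Stat6, and the 4 SOCS genes Socs1, Socs2, Socs3 and Cish. All 9 were in the table, and all 9 passed the filter on low counts that left 14439 genes for testing.

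The samples were 6 RNA-seq libraries of primary hepatic stellate cells, pericytes of the liver that store vitamin A, from mice. There were 3 libraries labelled DOX and 3 labelled PBS. Every animal carried the genotype BucheKI/KI-Hep and had received CCl4 (carbon tetrachloride, a liver toxin), and the series describes raised butyrylcholinesterase in hepatocytes. The labels give neither the age of the animals nor the promoter of the allele, and they do not say whether a library came from 1 animal or from pooled cells. DOX in animals without the allele was not analysed here, so an action of DOX itself and one of the introduced gene cannot be told apart.

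Libraries held 36220282 to 37707364 counted reads, so 1 read was worth 0.0253 to 0.0293 CPM (a gene's reads as a scaled share of its library, with TMM factors). The libraries held RNA of several cell types beside stellate cells. The 13 stellate markers summed to 1122, 1182 and 730 CPM in DOX replicates 1, 2 and 3 and 654, 601 and 1356 CPM in PBS, with Dcn the most abundant and the groups overlapping. None of the 13 was called in either direction by edgeR. The 12 endothelial markers summed to 6610, 6581 and 5365 CPM in DOX and 6244, 7504 and 7608 CPM in PBS, with Cdh5 the most abundant. Of these 12, 9 had negative log2 fold changes, and 6 had all DOX libraries below all PBS libraries. Tek alone was called lower (log2 fold change -0.80, edgeR adjusted p = 0.0311). Over all tested genes, 17.7% had all DOX libraries below and 2.04% were called lower. Summed CPM of 15 macrophage and monocyte markers was 14625, 7903 and 9000 in DOX libraries 1 to 3 and 4468, 6732 and 4367 in PBS libraries 1 to 3. The values below therefore belong to the whole RNA of each library, and in such bulk RNA more cells of a type and more RNA per cell cannot be told apart. Whether replicates were separate animals is not stated, so p-values measure only the spread between these libraries.

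In this pathway a cytokine binds its receptor, receptor-bound JAK kinases phosphorylate STAT proteins, and paired STATs enter the nucleus and bind DNA. Among the genes they switch on are SOCS genes, whose products block the receptor or its kinase and mark them for degradation. In the liver, interleukin-6 acting through STAT3 drives the acute-phase response, and growth hormone acts through STAT5.

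The transcripts that passed edgeR's test at an adjusted p of 0.05 were those of Stat4 and Socs3, and both calls depended on single libraries. Stat4 was 4.62-fold and Socs3 2.25-fold higher in DOX. Socs1 was 3.69-fold higher and narrowly missed the threshold (edgeR adjusted p = 0.0574, against 0.0443 for Socs3). Its DOX libraries were also all above its PBS libraries. Stat2, Stat6 and Socs2 differed by less than 1.3-fold. In all, 2 of 9 genes (22.2%) were called higher by edgeR's quasi-likelihood test at an adjusted p of 0.05, where 4.38% of all tested genes were. None of the 9 was called lower, where 2.04% of all genes were, and DESeq2 and limma-voom called none of them lower either. Over all genes 632 were called higher and 294 lower, and 611 higher and 730 lower when libraries were scaled by their totals alone. All 9 log2 fold changes were positive, with a median of 0.64 against -0.01 over all tested genes. An unadjusted p under 0.05 was reached by 5 of the 9 genes and by 28.7% of all genes.

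**Figure D1:**
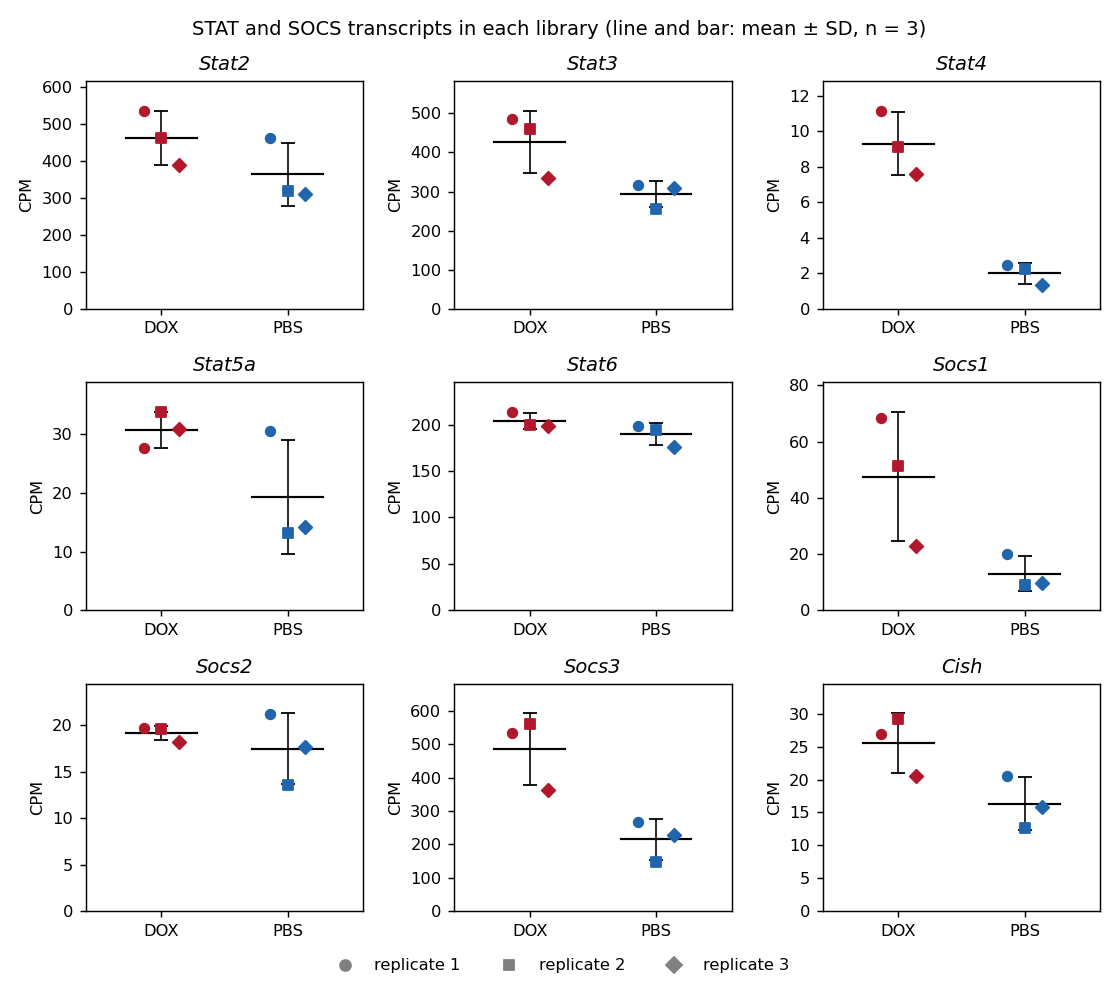
CPM of each of the 9 genes (vertical axes, each from 0) in the DOX and PBS libraries, with 1 symbol per replicate and the mean ± SD of 3 libraries. Stat4 and Socs3 show DOX libraries well apart from PBS libraries, while Stat6 and Socs2 lie at similar levels in both.

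Stretches of promoter DNA are shown for the genes whose RefSeq promoters (GRCm38.p6, 250 bases before to 50 after an annotated start) held a match to either of a pair of motifs. The GAS motif, letters TTCNNNGAA, reads the same on both strands and is the element that STAT dimers bind. The ISRE core, letters GAAANNGAAA on either strand, is the element bound by STAT2-containing complexes with IRF9 and by IRF proteins. RefSeq promoters were found for 8 of the 9 genes (10 promoters). GAS was found in promoters of 2 genes, against 8.3% of 32851 promoters of the same length, and ISRE in promoters of 3 genes, against 3.44%. Capitals mark the matches, and positions count from the annotated start as 0.
Socs3 GAS, position -154 of the annotated start used, chr11:117969501-117969530, minus strand: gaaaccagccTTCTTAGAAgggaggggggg
Cish GAS pair, at the start and 11 bases after it, chr9:107296649-107296678, plus strand: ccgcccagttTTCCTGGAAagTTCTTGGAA
Socs1 overlapping ISRE pair, positions -83 and -77, within the 250 bases upstream, chr16:10785537-10785786, minus strand: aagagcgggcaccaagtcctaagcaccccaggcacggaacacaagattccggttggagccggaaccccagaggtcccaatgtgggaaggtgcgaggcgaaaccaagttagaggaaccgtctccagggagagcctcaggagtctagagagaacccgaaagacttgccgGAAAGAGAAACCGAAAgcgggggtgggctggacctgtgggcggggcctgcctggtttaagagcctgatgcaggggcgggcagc
Stat2 ISRE, position -222, chr10:128270266-128270295, plus strand: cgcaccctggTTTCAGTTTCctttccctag
Stat4 ISRE, position -97 of the second of its annotated starts, chr1:52008133-52008162, plus strand: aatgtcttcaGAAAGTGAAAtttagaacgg
The Socs3 start used, 117969366, lies inside the span of the gene (117966079 to 117970336, minus strand), and so does its GAS site. The 250 bases before the starts used for Socs3 and for Cish overlap GENCODE M21 exons of the same genes. A match describes letters in these windows and is not evidence of binding in these cells. The windows of Stat3, Stat5a and Stat6 held no match, and none of the 10 promoters found held both motifs. No promoter of Socs2 was found.

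Stat4 encodes the STAT that carries interleukin-12 signals in lymphocytes and myeloid cells. The gene lies on chromosome 1 from 51987106 to 52107189 (GRCm38.p6, plus strand). In GENCODE M21 its exons share 1033 bases with Gm28177 on the same strand, a gene that the count table does not list. Its counts were 381, 323 and 279 in DOX libraries 1 to 3 and 93, 85 and 53 in PBS libraries 1 to 3. As normalised values these were 11.1, 9.10 and 7.61 CPM in DOX and 2.47, 2.22 and 1.34 CPM in PBS. The lowest DOX library was above the highest PBS library by a wide margin. The means were 9.29 ± 1.78 CPM in DOX and 2.01 ± 0.593 CPM in PBS (SD, n = 3 each), with a log2 fold change at 2.21 (SE 0.28; adjusted p by edgeR = 0.0209). The log2 fold change lay between 1.98 and 2.38 with each library left out in turn. The call was lost without DOX replicate 1 (edgeR adjusted p = 0.0597), PBS replicate 2 (0.0694) or PBS replicate 3 (0.0739).

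T and NK cell transcripts were higher beside Stat4. Summed CPM of the T and NK cell markers was 134, 54.6 and 78.5 in DOX libraries 1 to 3 and 14.6, 9.44 and 3.76 in PBS libraries 1 to 3. Of 12 tested markers of that list, 5 were called higher and none was called lower. Over all tested genes 4.38% were called higher, the share to set beside each marker list here. All 12 had positive log2 fold changes, with a median of 2.24. Gzmb, which encodes granzyme B, carried most of the sum, at 104, 39.9 and 54.8 CPM in DOX and 6.55, 3.95 and 1.26 CPM in PBS. The markers without Gzmb summed to 30.3, 14.8 and 23.8 CPM in DOX and 2.5 to 8.06 CPM in PBS, still without overlap. No marker was at 0 in every library, but the receptor genes were low. Cd3e, a chain of the T cell receptor complex, had 2.11, 0.845 and 1.53 CPM in DOX and 1.43, 0.183 and 0.126 CPM in PBS. Dendritic cell markers summed to 142, 128 and 113 CPM in DOX against 62.8, 58.1 and 60.1 CPM in PBS, with 3 of 7 tested markers called higher (Ccr7, Flt3 and Siglech). Most of the DOX sum was Ccr7. Without it the sums were 47.7, 48.6 and 44.0 CPM in DOX and 36.4, 39.5 and 45.4 CPM in PBS, and they overlapped. Clec9a and Zbtb46 had log2 fold changes of -0.34 and -0.20. The macrophage sums given above were also higher in each DOX library than in any PBS library. All 15 macrophage and monocyte markers had positive log2 fold changes, but only 2 were called higher, C1qb and C1qc. For 12 of the 15, DOX libraries were all above PBS libraries, as for 16.9% of all tested genes. The part of these cells in the Stat4 result was not tested.

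Stat3 encodes the STAT of interleukin-6 and interleukin-10 signalling, on chromosome 11 from 100886806 to 100939594 (minus strand). It was among the most abundant of the 9, with 486, 459 and 336 CPM in DOX replicates 1, 2 and 3 and 316, 255 and 308 CPM in PBS. DOX libraries lay above PBS libraries, but DOX replicate 3 came close to PBS replicate 1. The log2 fold change was 0.54 (SE 0.16, edgeR adjusted p = 0.0874), short of the threshold. Without DOX replicate 3 it was 0.69 and was called (edgeR adjusted p = 0.0380).

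Stat2, which encodes a STAT of interferon signalling, is on chromosome 10 from 128270498 to 128292853. It had 535, 461 and 388 CPM in DOX and 461, 319 and 310 CPM in PBS. The groups overlapped, since PBS replicate 1 matched DOX replicate 2, and the log2 fold change of 0.34 (SE 0.19) did not pass (edgeR adjusted p = 0.281).

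Stat5a, one of the STAT5 genes that serve growth hormone, prolactin and several interleukins, is on chromosome 11 from 100859351 to 100885169. It had 27.7, 33.8 and 30.9 CPM in DOX and 30.6, 13.1 and 14.2 CPM in PBS. PBS replicate 1 stood inside the DOX range, and the other PBS libraries stood far below it. The log2 fold change was 0.67 (SE 0.32, edgeR adjusted p = 0.218), and it was 1.17 (edgeR adjusted p = 0.0266) without PBS replicate 1. Stat5b is a close paralogue, and how reads matching both genes were counted is not given in the sources used here. In GENCODE M21 exons of Stat5a and Stat3 also overlap by 72 bases on opposite strands.

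Stat6 carries interleukin-4 and interleukin-13 signals and is on chromosome 10 from 127642955 to 127660987. It had 214, 200 and 199 CPM in DOX replicates 1, 2 and 3 and 199, 194 and 176 CPM in PBS. These were the most even values of the STAT genes, and the gap between the groups was only 198.6 CPM in DOX replicate 3 against 198.5 CPM in PBS replicate 1. The log2 fold change was 0.11 (SE 0.09, edgeR adjusted p = 0.461), and its sign turned when libraries were scaled by their totals alone (-0.021).

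Among the SOCS genes, Socs3 encodes the inhibitor that binds the shared interleukin-6 receptor chain. It lies on chromosome 11 from 117966079 to 117970336 (minus strand). Its counts were 18209, 19911 and 13308 in DOX libraries 1 to 3 and 10099, 5692 and 9084 in PBS libraries 1 to 3. Normalised, these were 533, 561 and 363 CPM in DOX and 268, 149 and 229 CPM in PBS, and the groups did not overlap. The means were 486 ± 107 CPM in DOX and 215 ± 60.6 CPM in PBS (SD, n = 3 each), with a log2 fold change at 1.17 (SE 0.25; adjusted p by edgeR = 0.0443). This value is close to the threshold. The call was lost without DOX replicate 1 (edgeR adjusted p = 0.136), DOX replicate 2 (0.0884), PBS replicate 2 (0.0990) or PBS replicate 3 (0.127), while the log2 fold change stayed between 0.96 and 1.36.

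Socs1 encodes the inhibitor of interferon signalling that acts on JAK kinases directly, and lies on chromosome 16 from 10783808 to 10785536 (minus strand). It had 68.4, 51.3 and 22.9 CPM in DOX replicates 1, 2 and 3 and 20.0, 8.95 and 9.62 CPM in PBS. DOX replicate 3 was close to PBS replicate 1, and the spread within DOX was the widest of the 9 genes relative to its mean. The means were 47.5 ± 23.0 CPM in DOX and 12.9 ± 6.22 CPM in PBS (SD, n = 3 each). The log2 fold change of 1.88 (SE 0.47) missed the threshold (edgeR adjusted p = 0.0574). It was 2.21 without DOX replicate 3 and 2.35 without PBS replicate 1, and was then called (edgeR adjusted p = 0.0304 and 0.0450).

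Cish and Socs2, both feedback genes of STAT5, had smaller differences. Cish, on chromosome 9 from 107296659 to 107302784, had 27.0, 29.2 and 20.5 CPM in DOX and 20.6, 12.7 and 15.8 CPM in PBS. Its lowest DOX library and highest PBS library were at the same level, and the log2 fold change of 0.64 (SE 0.21) was not called (edgeR adjusted p = 0.104). Socs2, on chromosome 10 from 95383903 to 95417321, had 19.7, 19.6 and 18.3 CPM in DOX and 21.2, 13.6 and 17.6 CPM in PBS. PBS replicate 1 was above all DOX libraries, and the log2 fold change at 0.13 (SE 0.17; adjusted p by edgeR = 0.648) was -0.021 without PBS replicate 2.

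**Figure D2:**
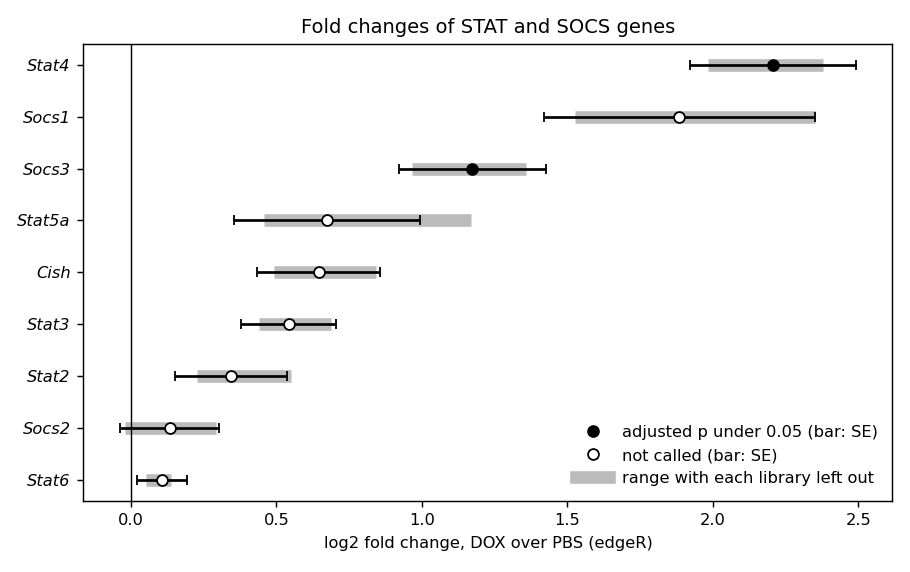
Log2 fold change of DOX over PBS for the 9 genes (horizontal axis) with its SE (bars), and the range when each library was left out (grey). Filled points, for Stat4 (2.21) and Socs3 (1.17), passed an adjusted p of 0.05.

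The count of calls depended on the model and on single libraries. DESeq2 called 5 of the 9 genes higher (Stat3, Stat4, Socs1, Socs3 and Cish), where 10.9% of all genes it tested were called higher. Limma-voom called Stat4 and Socs3, where 4.02% of all genes were called higher. Without PBS replicate 2 or PBS replicate 3 edgeR called no gene of the whole table. In each of those fits Stat3, Stat4, Socs1 and Socs3 had an unadjusted p under 0.05, as they did with all libraries. Over all genes tested, 3294 and 3092 had one, of which 2886 and 2770 also had one with all libraries. DOX libraries were all above PBS libraries for 5 of the 9 genes (Stat3, Stat4, Stat6, Socs1 and Socs3) and for 16.9% of all tested genes. For none of the 9 were they all below, where 17.7% of all genes were.

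PBS replicate 1 held the highest PBS value of all 9 genes, as it did for 34.2% of all tested genes. DOX replicate 3 held the lowest DOX value of 8 of them, with Stat5a as the exception, and of 35.6% of all tested genes. No test of joint variation was made. Hepatocyte transcripts set DOX replicate 3 apart, with marker sums of 1038, 437 and 3607 CPM in DOX replicates 1, 2 and 3 and 282, 476 and 522 CPM in PBS. Their part in the lower STAT and SOCS values of that library was not tested. PBS replicate 1 had the lowest hepatocyte sum, and its macrophage sum was below that of PBS replicate 2. Its T and NK cell sum (14.6 CPM) and neutrophil sum (59.6 CPM) were the highest of the PBS libraries. Its dendritic sum (62.8 CPM) was too, but without Ccr7 it was the lowest (36.4 CPM). The B and plasma cell sum was highest in PBS replicate 3. The part of these cells in the values of PBS replicate 1 was not tested.

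**Figure D3:**
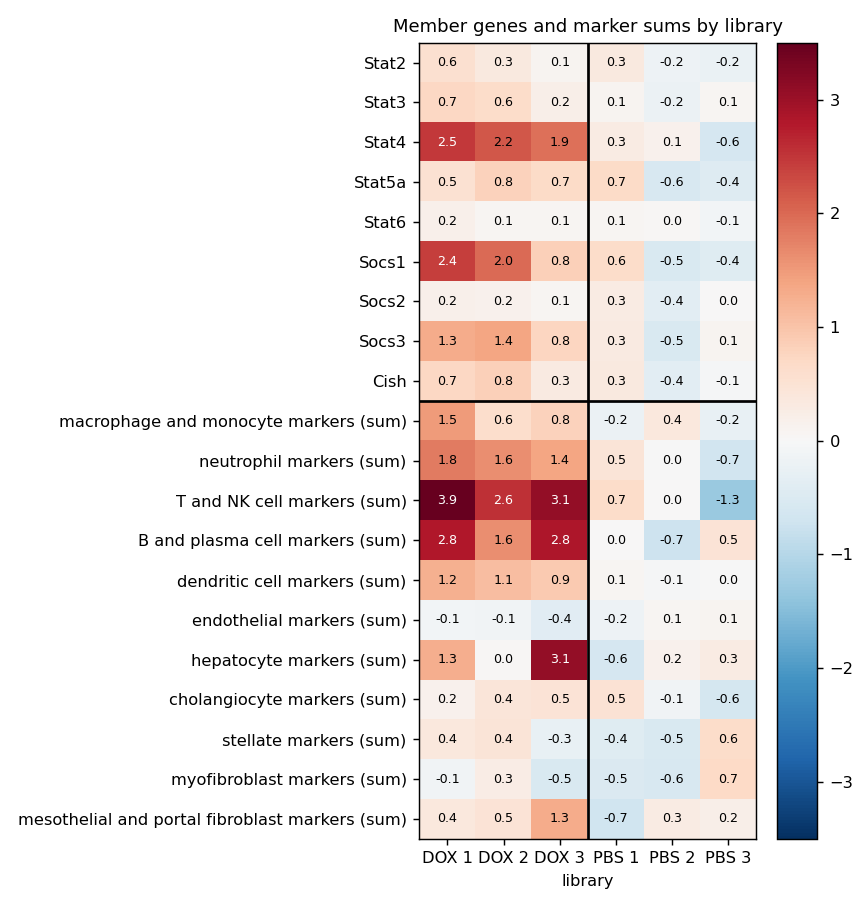
Log2 of CPM over the PBS mean for each gene and for the summed markers of each cell type (rows) in the 6 libraries (columns). The T and NK cell sum, mostly Gzmb in DOX, stands 2.6 to 3.9 above the PBS mean in DOX libraries and Stat4 1.9 to 2.5 above it, while the endothelial sum, in which 9 of 12 markers had negative log2 fold changes, lies between -0.4 and 0.1.

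Levels can be compared between genes as FPKM, which counts reads per kilobase of gene length. In DOX, Socs3 had the highest mean at 169 ± 31.1 FPKM, above Stat2 (98.2 ± 11.5) and Stat3 (88.3 ± 12.9), which overlapped each other. Stat6 followed at 51.3 ± 1.66 FPKM and Socs1 at 33.4 ± 15.1 FPKM. Stat5a (6.43 ± 0.754 FPKM) and Cish (5.67 ± 0.802 FPKM) overlapped, and Stat4 (2.76 ± 0.414 FPKM) and Socs2 (1.40 ± 0.0110 FPKM) were lowest (SD, n = 3 libraries). In PBS the order differed at the top and at the bottom. Stat2 (84.6 ± 17.9 FPKM), Socs3 (82.1 ± 22.0 FPKM) and Stat3 (66.5 ± 6.89 FPKM) overlapped as neighbours, and Stat4 came last at 0.652 ± 0.185 FPKM, below Socs2 at 1.39 ± 0.281 FPKM.

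Set against the STAT it restrains, Socs3 stood higher in DOX. There were 1.85, 2.06 and 1.82 FPKM of Socs3 per FPKM of Stat3 in DOX libraries 1 to 3 and 1.43, 0.982 and 1.25 in PBS libraries 1 to 3. The groups did not overlap in this ratio, which was not tested and which needs no scaling between libraries. Socs1 stood at 0.427, 0.371 and 0.197 FPKM per FPKM of Stat2 in DOX and 0.145, 0.0936 and 0.104 in PBS. That ratio did not overlap either, and it was not tested. The STAT5 feedback genes, set against Stat5a without Stat5b, did not show such a gap. Cish stood at 1.04, 0.922 and 0.709 FPKM per FPKM of Stat5a in DOX and 0.718, 1.03 and 1.19 in PBS, with overlap. Socs2 stood at 0.249, 0.203 and 0.207 per FPKM of Stat5a in DOX and 0.243, 0.364 and 0.435 in PBS, also with overlap.

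The other genes of the pathway were described by 10 lists, some of which share genes. A gene said below to have risen or fallen was called by edgeR. Over all tested genes, 4.38% were called higher and 2.04% lower, the shares to set beside each list. As for every gene of the table, none of the calls below held without PBS replicate 2 or PBS replicate 3. Over 16 alternative settings the number of genes called higher ranged from 0 to 8 for cytokines, 0 to 12 for receptors, 0 to 5 for negative regulators and 0 to 13 for interferon-induced genes. Of 5 other STAT and SOCS genes tested, edgeR called none, with 1 at an unadjusted p under 0.05, 1 called by DESeq2 and none by limma-voom. Their median log2 fold change was 0.03. The most abundant by FPKM were Socs5 and Stat5b. Stat5b had 79.2, 67.8 and 56.5 CPM in DOX and 50.7, 48.0 and 43.8 CPM in PBS, without overlap (log2 fold change 0.52, edgeR adjusted p = 0.0658). Socs5 overlapped between the groups, with a log2 fold change at -0.01 (SE 0.11; adjusted p by edgeR = 0.968), and its sign turned with RLE factors.

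All 4 kinase genes had positive log2 fold changes, with a median of 0.47. Of 4 JAK genes, Jak3, the kinase of the common gamma chain receptors in lymphocytes, was the 1 called. It had 23.9, 19.9 and 20.0 CPM in DOX and 15.6, 13.7 and 14.3 CPM in PBS (log2 fold change 0.55, SE 0.12, edgeR adjusted p = 0.0480). Jak3 was called in 3 of the 16 alternatives, and 12 of them called no JAK gene, limma-voom among them. Jak1 and Jak2, the most abundant, had log2 fold changes of 0.30 and 0.49 and were not called (edgeR adjusted p = 0.189 and 0.144). Tyk2 had a log2 fold change of 0.45 and was not called either (edgeR adjusted p = 0.0940).

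Of 17 tested cytokine genes that signal through STATs, edgeR called 5 higher and none lower, with a median log2 fold change of 0.80. Log2 fold changes were positive for 15 of the 17. Csf2 and Tslp were at -0.78 and -0.70 and were not called (edgeR adjusted p = 0.224 and 0.183). Il27 and Ebi3 encode the chains of interleukin-27. Il27 had 12.4, 13.9 and 4.47 CPM in DOX and 0.875, 0.890 and 0.758 CPM in PBS (log2 fold change 3.60, SE 0.45, edgeR adjusted p = 0.0206). Ebi3 had 17.1, 13.0 and 12.6 CPM in DOX and 4.27, 4.32 and 3.59 CPM in PBS (log2 fold change 1.81, edgeR adjusted p = 0.0200). Ifng, which encodes interferon gamma, had 7.35, 4.70 and 1.26 CPM in DOX and 0.663, 0.288 and 0.202 CPM in PBS (edgeR adjusted p = 0.0425), so its level differed several-fold among DOX libraries. The others that rose were Il10, with a log2 fold change of 2.55, and Il12a, a chain of interleukin-12 named after its value was seen, at 0.878, 2.56 and 2.43 CPM in DOX and 0.239, 0 and 0.101 CPM in PBS. Il6 had 32.4 ± 13.2 CPM in DOX and 21.6 ± 11.8 CPM in PBS and Csf3 52.7 ± 20.2 CPM in DOX and 37.6 ± 13.8 CPM in PBS (SD, n = 3 each). Both were the most abundant of the list by FPKM, and neither was called (edgeR adjusted p = 0.472 and 0.400).

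Of 32 tested receptor genes, edgeR called 6 higher and none lower, with a median log2 fold change of 0.33. DOX libraries were all above PBS libraries for 17 of them and all below for 2, Ghr and Il27ra. Over all tested genes the shares were 16.9% all above and 17.7% all below. Ghr, the growth hormone receptor gene, had a log2 fold change of -0.80 (edgeR adjusted p = 0.0505) and was called lower by DESeq2. Il27ra was at -0.36 (edgeR adjusted p = 0.185). Il12rb2, the signalling chain of the interleukin-12 receptor that acts upstream of STAT4, had 10.8, 6.36 and 6.44 CPM in DOX and 1.27, 1.31 and 0.833 CPM in PBS (log2 fold change 2.79, SE 0.32, edgeR adjusted p = 0.0200). Il13ra1, a chain of an interleukin-13 receptor, had 174 ± 19.7 CPM in DOX and 108 ± 6.03 CPM in PBS (SD, n = 3 each, log2 fold change 0.70, edgeR adjusted p = 0.0256). Csf3r rose with a log2 fold change of 1.56 (edgeR adjusted p = 0.0357). Il15ra had 59.3, 52.8 and 36.9 CPM in DOX and 25.6, 11.3 and 15.9 CPM in PBS (edgeR adjusted p = 0.0418). Csf3r is also a neutrophil marker, and the 10 neutrophil markers summed to 154, 135 and 114 CPM in DOX and 59.6, 42.8 and 27.5 CPM in PBS. Most of that sum was Csf3r itself, and the other 9 summed to 10.4, 17.9 and 27.8 CPM in DOX and 6.10, 3.11 and 2.78 CPM in PBS. All 5 tested neutrophil markers had positive log2 fold changes and 3 were called higher, Csf3r, S100a8 and S100a9 (edgeR adjusted p = 0.0455 for S100a8 and 0.0290 for S100a9). Ly6g, which defines neutrophils, was not tested and stood at 0, 0 and 0.109 CPM in DOX and 0.0530, 0 and 0.0253 CPM in PBS. The abundant receptor genes Il6st and Csf2rb2 had log2 fold changes of 0.44 and -0.38 and were not called.

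Of 17 tested genes for other negative regulators, 3 rose and 1 fell, with a median of 0.31. Ptpn6, which encodes the phosphatase SHP-1 of blood cells, had 355, 262 and 229 CPM in DOX and 132, 145 and 83.9 CPM in PBS (log2 fold change 1.23, SE 0.24, edgeR adjusted p = 0.0367). Ptprc, which encodes the leukocyte phosphatase CD45, rose by the same log2 fold change (edgeR adjusted p = 0.0384). Ptpn22 had 11.5, 7.72 and 8.05 CPM in DOX and 2.81, 4.37 and 1.79 CPM in PBS (edgeR adjusted p = 0.0450). These are genes of leukocytes. The sums of macrophage, T and NK cell and neutrophil markers were higher in DOX, while the dendritic sums without Ccr7 overlapped. The part of these cells in the 3 calls was not tested. Sh2b3, which encodes the adaptor LNK, fell to 100 ± 4.99 CPM in DOX against 143 ± 17.6 CPM in PBS (SD, n = 3 each, log2 fold change -0.51, SE 0.11, edgeR adjusted p = 0.0427). It was the 1 gene called lower among 128 tested genes of the 10 lists, where 3 were lower at an unadjusted p under 0.05 and DESeq2 called 2 and limma-voom 1. Usp18, the most abundant of these regulators by FPKM, had a log2 fold change of 0.33 and was not called.

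Target genes of single STATs and interferon-induced genes were counted next. Of 7 STAT4 targets, 4 rose (Ifng, Il12rb2, Tbx21 and Il18rap), with a median of 1.61. Tbx21, which encodes the T-bet factor of type 1 lymphocytes, averaged 1.58 ± 0.717 CPM in DOX and 0.304 ± 0.105 CPM in PBS (SD, n = 3 each, edgeR adjusted p = 0.0356). Il18rap had 2.78, 3.41 and 5.29 CPM in DOX and 1.01, 1.65 and 1.11 CPM in PBS (edgeR adjusted p = 0.0433). The calls of Il18rap and Ifng held in 5 of 14 and 7 of 15 alternatives that tested them, and the number called in this list ranged from 0 to 5. Furin and Gadd45g, the most abundant, had log2 fold changes of 0.05 and -0.14. The 4 that rose are genes of T and NK cells. Among DOX libraries, Ifng, Il12rb2 and Tbx21 were highest in replicate 1, as was the T and NK cell marker sum, while Il18rap was highest in replicate 3. That sum, Il12rb2 and Tbx21 were lowest in DOX replicate 2, but Ifng was lowest in DOX replicate 3. The part of those cells in these calls was not tested.

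Of 20 STAT3 targets, edgeR called 3 higher (Fos, Ccnd1 and Hp) and none lower, with a median of 0.61. Log2 fold changes were positive for 17 of the 20. Hp, which encodes haptoglobin, had 95.3, 62.2 and 154 CPM in DOX and 23.7, 32.4 and 38.1 CPM in PBS (edgeR adjusted p = 0.0362). It is also made by hepatocytes, and DOX replicate 3, where it was highest, held the highest hepatocyte sum. In DOX replicate 2 Hp was also above every PBS library. The hepatocyte sum of that library (437 CPM) was below those of PBS replicates 2 and 3 (476 and 522 CPM). The part of hepatocytes in the Hp call was not tested. Fos had 26.3 ± 4.51 CPM in DOX and 13.5 ± 0.672 CPM in PBS (SD, n = 3 each, log2 fold change 0.96, edgeR adjusted p = 0.0255). Ccnd1, which encodes cyclin D1, averaged 110 ± 46.1 CPM in DOX and 38.2 ± 6.24 CPM in PBS (SD, n = 3 each, edgeR adjusted p = 0.0334). Saa3 and Cebpb, the most abundant of the list by FPKM, were not called.

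Of 15 tested interferon-induced genes, 4 rose (Irf1, Gbp2, Gbp3 and Cxcl9), all 15 had positive log2 fold changes, and the median was 0.90. Cxcl9, a chemokine gene induced by interferon gamma, had 1057, 1082 and 393 CPM in DOX and 275, 185 and 197 CPM in PBS (log2 fold change 1.95, SE 0.39, edgeR adjusted p = 0.0373). As in Socs1, DOX replicate 3 was the lowest DOX library and PBS replicate 1 the highest PBS library. Cxcl10 and Isg15, the most abundant, had log2 fold changes of 1.17 and 0.58 and were not called (edgeR adjusted p = 0.147 and 0.187).

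Of 12 STAT5 targets, 1 rose (Id1, log2 fold change 0.90, edgeR adjusted p = 0.0415), with a median of 0.56. Id1 was called in 6 of 16 alternatives, and 8 of them called no gene of this list. Pim1, a STAT-induced kinase gene, and Mcl1, a survival gene, were the most abundant and had log2 fold changes of 0.67 and 0.12 without a call. Of 11 tested STAT6 targets, 3 rose (Arg1, Ccl24 and Tgm2), with a median of 0.95. Ccl24, which encodes an eotaxin of alternatively activated macrophages, had 22.4, 19.9 and 17.9 CPM in DOX and 5.67, 6.70 and 3.61 CPM in PBS (log2 fold change 1.91, SE 0.24, edgeR adjusted p = 0.0206). Stat6 itself was not called, nor was its abundant target Il4ra (log2 fold change 0.18). Ccl17, Cd209a, Mgl2 and Retnla of that list were below the count filter.

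**Figure D4:**
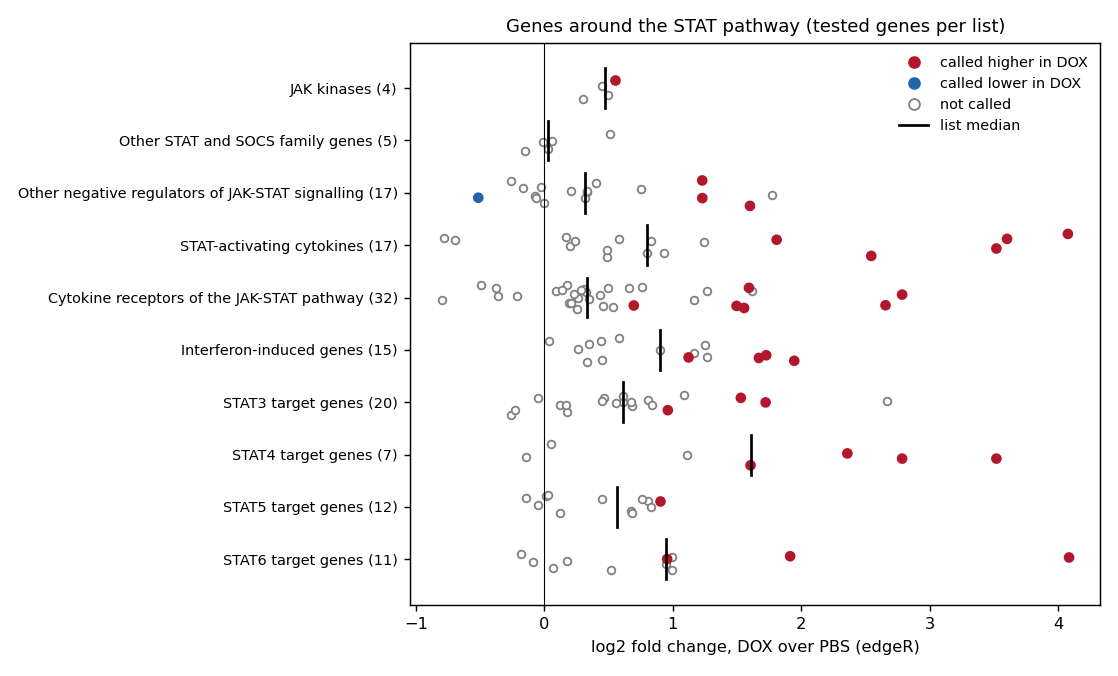
Log2 fold change of DOX over PBS (horizontal axis) of each tested gene in the 10 pathway lists (rows, with the number tested). Filled points passed an adjusted p of 0.05, and the bars mark list medians, from 0.03 for the other STAT and SOCS genes to 1.61 for STAT4 targets.

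The genes whose levels followed Stat4 most closely over the 6 libraries, among 9755 genes of at least 5 CPM, were Ccdc88b, Pstpip2 and Ddx60 (Pearson r of log2 CPM 0.998, 0.996 and 0.996). For Socs3 they were Junb, Alpk1 and Carhsp1 (r 0.994, 0.989 and 0.989). These r describe libraries that share the group difference. Ccdc88b had 102, 84.7 and 81.5 CPM in DOX and 39.6, 34.2 and 24.4 CPM in PBS. Junb, an AP-1 factor gene, had 416, 452 and 374 CPM in DOX and 310, 235 and 297 CPM in PBS, highest in DOX replicate 2 and lowest in PBS replicate 2, as Socs3 was.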

How the data were processed

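RNA-seq of 6 libraries (3 DOX, 3 PBS) was used. The authors deposited raw counts per gene symbol, and FPKM values that the authors made from the same counts. Each nonzero FPKM value was the count divided by 1 fixed gene length and by the column total (relative tolerance 0.0001, 100% of values). Builds named without a role, per the submitters' processing notes, are GRCm38, mm10 and hg38. The aligner, the counting tool, its use of strand and the gene lengths are not given in the sources that were used. Libraries were made from total RNA with a SMARTER kit, per the labels.

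Groups came from the sample titles. Replicates of a group differed by far more than sampling noise (chi-square per degree of freedom 38.6 to 82.1). Counts were tested in edgeR 4.0.16 (R 4.3.3) with TMM factors (0.923 to 1.06), filterByExpr defaults (minimum count 10), the quasi-likelihood test, two-sided, and Benjamini-Hochberg adjustment over all 14439 genes. SE came from the F statistic. The code was tested on simulated data. Alternatives used DESeq2 1.42.0 and limma 3.58.1, other scaling, filters, FPKM, and each library left out. The members and the gene lists were chosen with earlier results of these data known. Named were all 9 members, from each pathway list up to 4 called genes a direction by lowest p and the 2 highest by mean FPKM, and for each called member the 3 genes with the highest Pearson r of log2 CPM (prior count 2). A gene of the lists is not reported here. Marker sums without their most abundant gene were added after the values were seen. Csf2, Tslp and Tyk2 were also named after their values were seen.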

Additional observations from a re-analysis of the deposited data

How the results depend on the processing

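The count of STAT and SOCS genes called higher was 2, and it was 0 to 4 with each library left out. It was 5 by DESeq2 and 1 by limma on log2(FPKM + 1), and 2 or 3 by the other 8 alternatives. The cause was not tested. No alternative called any of the 9 lower. Stat4 was called in 13 of 16 alternatives with log2 fold changes of 1.19 to 2.38, the lowest on the log2(FPKM + 1) scale, which understates low genes. Socs3 was called in 10 and Socs1 in 6. Scaling by library totals alone shifted the median of all genes to -0.14 against -0.01, with 611 genes higher and 730 lower in place of 632 and 294. Stat6 (-0.0207), Furin (-0.0756) and Mcl1 (-0.00397) changed sign on that scale, though each stayed above the shifted median. By limma on log2(FPKM + 1), with or without a minimum of 1 FPKM, they were at -0.0196, -0.0741 and -0.00521, and on log2(FPKM + 0.1) at -0.0200, -0.0749 and -0.00531. Socs5 was at 0.00059 with RLE factors and 0.000402 with a filter of 5 CPM. With libraries left out, Socs2 ranged from -0.0210 to 0.29, Socs5 from -0.118 to 0.0733 and Gadd45g from -0.40 to 0.13. Calls over all genes ranged from 0 to 1090 with libraries left out and reached 2610 by DESeq2, against 926. The replicate numbers gave no clear pairing: correlations of deviations within numbers were 0.09, -0.11 and 0.23. With the number as a block 2 genes were called, Stat4 and Socs1 (adjusted p = 0.0269), while Socs3 was not (0.0619). Genes of a few CPM, Stat4 among them, rest on the fewest reads, 53 to 381 for Stat4.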
